A study of Mus musculus with 8 samples.

Results

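Genes that mark alveolar type 1 cells were followed in RNA-seq libraries from sorted mouse airway epithelial cells. The genes were Ager, Cav1, Emp2, Cldn18, Aqp5, Hopx, Igfbp2, Pdpn, Akap5 and Rtkn2, chosen by name as alveolar type 1 cell genes, and they make up 10 of the 25124 genes in the expression table. The 8 libraries came from lungs of C57BL/6 mice of genotype STAT3-WT or STAT3-cKO that received HDM, the usual abbreviation of house dust mite, or PBS, the buffer control. Each of the 4 groups had 2 libraries: STAT3-WT with PBS (WT PBS below), STAT3-WT with HDM (WT HDM), STAT3-cKO with PBS (cKO PBS) and STAT3-cKO with HDM (cKO HDM). The sources used here do not give the Cre driver and the cells that lost STAT3, the dosing schedule, or the age and sex of the mice. Nor do the labels say whether each library stands for its own animal. The p-values therefore measure the spread between libraries, which may be technical.

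Alveolar type 1 cells are the thin, flat cells that cover most of the gas exchange surface of the lung, and they lie against the capillary endothelium. They differ from the cuboidal alveolar type 2 cells, which make surfactant and can give rise to type 1 cells through a transitional state after injury. Airway epithelium is made mostly of club and ciliated cells, and it is not where type 1 cells lie. STAT3 is a transcription factor activated downstream of cytokines such as IL-6.

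Recovered reads ran from 232556 to 593200 per library, so that 3 reads were worth 1.96 to 4.88 normalized counts. A normalized count is a read count divided by a size factor of its library. The targeted gene, Stat3, was at 75.8 and 40.9 normalized counts in WT PBS, 134 and 157 in WT HDM, 56.9 and 96.5 in cKO PBS, and 76.9 and 92.2 in cKO HDM. Gene-level counts can include exons outside a deleted stretch, whose position is not given in the sources used here, so Stat3 does not check the genotype labels. Airway markers were present throughout: the club cell gene Scgb1a1 lay between 1545 and 4213 normalized counts, the ciliated cell gene Foxj1 between 380 and 810, and the epithelial adhesion gene Epcam between 99.7 and 179. Their levels were not constant: 9 club and secretory markers summed to 8702 and 8449 in WT PBS and 5511 and 7060 in WT HDM. The same markers summed to 15208 and 10900.5 in cKO PBS, and 5449 and 8428 in cKO HDM. The alveolar type 2 gene Sftpc was also present in every library, from 765 to 2878. The WT HDM libraries stood apart in markers of other cell types.

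The alveolar type 1 genes fell into a detected set of 7 and a set of 3 near the detection limit. Per kilobase of exon, Hopx had the highest mean level over the 8 libraries at 50.1 normalized counts (range 36.5 to 65.6), followed by Ager at 48.5 (26.1 to 112). Cldn18 and Igfbp2 both averaged 29.7, with ranges of 13.6 to 46.0 and 13.1 to 56.1. Aqp5 averaged 26.9 (8.38 to 33.4), Emp2 17.4 (13.9 to 23.1) and Cav1 13.5 (4.58 to 31.1). Each of these ranges overlapped that of its neighbour in the order, so the order of neighbours is not resolved beyond the spread over libraries. Pdpn, at 2.85 (0 to 5.68), Akap5 at 0.656 (0 to 2.05) and Rtkn2 at 0.0777 (0 to 0.458) had lower means than all of them. The same genes differed in how far they varied: the highest library was 6.78 times the lowest for Cav1, 4.30 times for Igfbp2, 4.29 times for Ager, 3.98 times for Aqp5 and 3.38 times for Cldn18, but 1.80 times for Hopx and 1.66 times for Emp2.

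**Figure D1:**
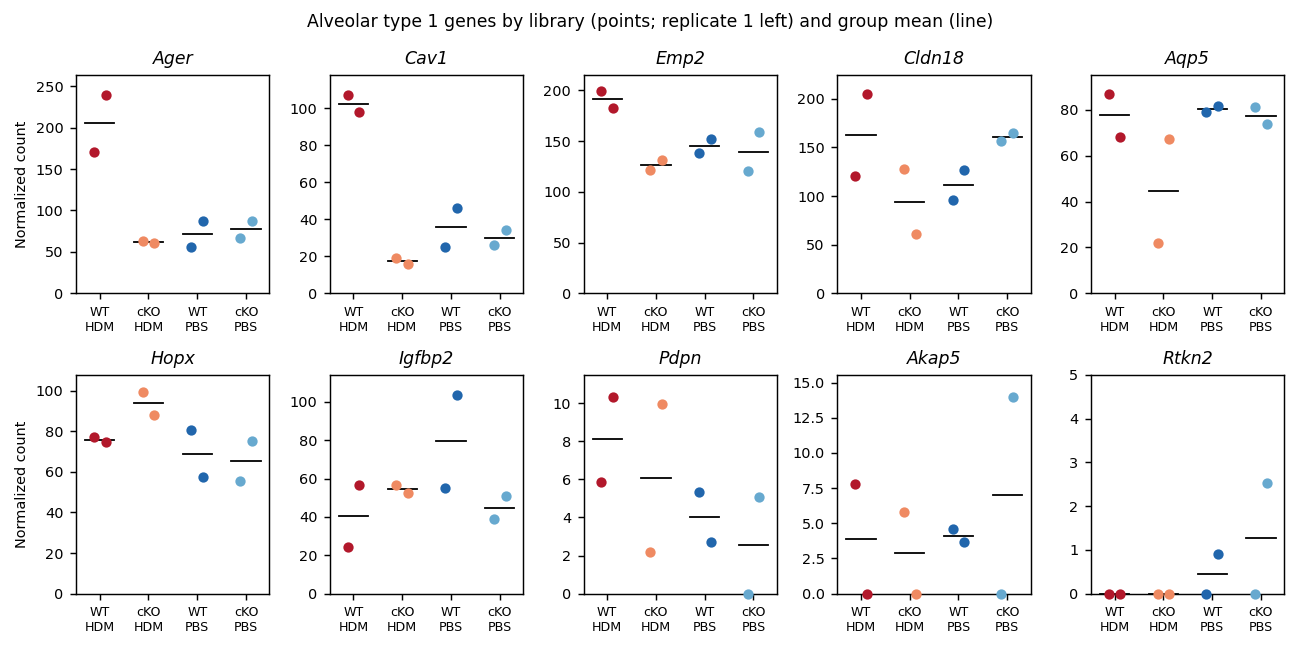
Normalized counts (vertical axes, each from 0 and on its own scale) of the 10 alveolar type 1 genes in the 4 groups, with a point for each library and a line at the group mean. Ager and Cav1 are highest in both WT HDM libraries, at 170 and 240 and at 107 and 98.0, whereas Hopx varies 1.80-fold and Emp2 1.66-fold over the libraries.

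Ager and Cav1 carried the clearest group pattern: both were high in WT HDM and low in the 3 other groups, and both were lower in cKO HDM than in WT HDM by limma's test across 7512 genes. Ager encodes RAGE, a multiligand receptor that is among the most abundant surface proteins of alveolar type 1 cells. Its gene lies on chromosome 17 (GRCm38, 34597862 to 34600936, plus strand). Ager was at 55.9 and 87.3 normalized counts in WT PBS, 170 and 240 in WT HDM, 66.7 and 87.6 in cKO PBS, and 63.1 and 60.6 in cKO HDM. Both WT HDM libraries were above all 6 others, and those 6 lay within a narrow band in which the cKO HDM libraries sat below both cKO PBS libraries but inside the WT PBS range. The group means were 71.6 ± 22.2 (SD, n = 2) in WT PBS, 205 ± 49.2 in WT HDM, 77.2 ± 14.8 in cKO PBS and 61.9 ± 1.77 in cKO HDM.

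Cav1 encodes caveolin-1, the scaffold protein of caveolae, the small membrane pits that are dense in alveolar type 1 cells and also in endothelium. It lies on chromosome 6 (GRCm38, 17306335 to 17341452, plus strand) and is overlapped by the antisense gene Gm15581. Cav1 was at 25.3 and 46.4 normalized counts in WT PBS, 107 and 98.0 in WT HDM, 26.0 and 34.3 in cKO PBS, and 18.9 and 15.8 in cKO HDM. The WT HDM libraries were again the highest, and the cKO HDM libraries were below all the others. The group means were 35.8 ± 14.9 (SD, n = 2), 102 ± 6.34, 30.2 ± 5.84 and 17.3 ± 2.18 in the same order.

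Under HDM, Ager was lower in cKO than in WT (log2 difference of -1.69 ± 0.36 SE, 95% interval -2.45 to -0.94, limma adjusted p = 0.0455). Cav1 was lower in the same comparison, with a log2 difference of -2.50 ± 0.49 SE (interval -3.54 to -1.46, limma adjusted p = 0.0267). All log2 differences are on the scale of log2(normalized count + 1), which understates changes of low genes. edgeR's quasi-likelihood test on the recovered reads gave adjusted p = 0.0328 for Ager and 0.0194 for Cav1, and DESeq2 gave 0.00185 and 0.000731. In the same libraries, alveolar type 2 markers summed to 15306 and 20575 normalized counts in WT HDM and 5640 to 7608 elsewhere, endothelial markers to 1314 and 1472 against 255 to 389, and fibroblast and smooth muscle markers to 1580 and 1737 against 48.8 to 143. The part of these cells in the levels of Ager and Cav1 was not tested. Both calls were lost without any 1 of the 4 HDM libraries, with limma adjusted p of 0.0579 to 0.574 for Ager and 0.0986 to 0.414 for Cav1, and Ager's was lost with TMM scaling (0.0540). Ager's call was also lost without WT PBS replicate 1 or 2 (0.0745 and 0.0863) and Cav1's without WT PBS replicate 2 (0.0632).

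In WT mice, Ager was higher after HDM than after PBS by a log2 difference of 1.52 ± 0.36 SE (interval 0.76 to 2.27), which did not pass across all genes (limma adjusted p = 0.0862). DESeq2 called it (adjusted p = 0.0115), edgeR did not (0.0655). Limma called it with a pseudocount of 5 (0.0337), a minimum mean of 50 (0.0146) and quantile normalization (0.0414), and a limma fit of the WT HDM and WT PBS libraries alone did (0.00499). Cav1 had a log2 difference of 1.55 ± 0.49 SE in that comparison (interval 0.51 to 2.59, limma adjusted p = 0.269), and the fit of those libraries alone called it too (0.0287). In cKO mice the HDM minus PBS difference was -0.30 ± 0.36 SE for Ager (interval -1.06 to 0.46, limma adjusted p = 0.853) and -0.76 ± 0.49 SE for Cav1 (interval -1.80 to 0.28, limma adjusted p = 0.718). The test of whether the HDM difference itself depended on genotype gave -1.82 ± 0.50 SE for Ager (interval -2.89 to -0.75, limma adjusted p = 0.428) and -2.31 ± 0.69 SE for Cav1 (interval -3.78 to -0.84, limma adjusted p = 0.480). The intervals lay below 0, but neither gene passed across all genes. Under PBS, the cKO minus WT difference was 0.13 for Ager (interval -0.63 to 0.88, limma adjusted p = 0.960) and -0.19 for Cav1 (interval -1.23 to 0.85, limma adjusted p = 0.954), and leaving out 1 library could turn either sign.

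Because Ager and Cav1 moved together and the study removed a transcription factor, their promoter letters are shown, with one of Cldn18 that held the single motif match. The sequences are from RefSeq (GRCm38.p6), the 250 bases before an annotated start, written 5′ to 3′ on the gene's strand. RefSeq promoters were matched for 9 of the 10 genes, in 13 windows. Capitals mark a match to 1 of 3 motifs searched on both strands: TTCNNNGAA (the STAT dimer site), GGAATG (the TEAD site) and CAAGTG (an NKX2-1 core that is also an E-box).
Ager, chr17:34597600-34597849, plus strand: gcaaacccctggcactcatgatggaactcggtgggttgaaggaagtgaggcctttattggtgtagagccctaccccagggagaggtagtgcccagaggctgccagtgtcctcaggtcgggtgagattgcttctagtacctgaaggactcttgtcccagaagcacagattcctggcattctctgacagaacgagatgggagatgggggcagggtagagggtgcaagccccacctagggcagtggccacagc
Cav1, chr6:17306085-17306334, plus strand: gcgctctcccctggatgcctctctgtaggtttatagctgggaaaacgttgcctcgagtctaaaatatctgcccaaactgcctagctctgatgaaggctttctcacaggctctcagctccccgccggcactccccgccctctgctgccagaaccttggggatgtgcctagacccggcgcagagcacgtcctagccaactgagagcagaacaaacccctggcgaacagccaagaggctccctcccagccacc
Cav1, chr6:17307390-17307639, plus strand: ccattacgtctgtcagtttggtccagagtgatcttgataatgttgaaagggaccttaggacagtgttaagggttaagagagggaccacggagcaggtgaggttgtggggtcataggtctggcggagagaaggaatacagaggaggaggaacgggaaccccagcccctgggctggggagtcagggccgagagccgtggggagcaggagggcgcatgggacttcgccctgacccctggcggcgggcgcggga
Cldn18, chr9:99710064-99710313, minus strand: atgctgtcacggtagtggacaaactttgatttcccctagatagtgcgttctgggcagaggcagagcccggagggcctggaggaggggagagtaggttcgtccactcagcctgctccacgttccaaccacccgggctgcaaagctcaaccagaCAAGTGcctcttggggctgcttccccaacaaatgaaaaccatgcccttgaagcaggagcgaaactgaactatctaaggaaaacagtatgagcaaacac
Among 32851 mouse promoter windows of this length, 7.02% held the STAT letters, 12.6% the TEAD letters and 11.6% the NKX2-1 letters. In the 13 windows of the alveolar type 1 genes the only match was CAAGTG in the second Cldn18 window, 98 to 93 bases before the start. No match says only that these letters are not in these windows.

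Emp2 encodes epithelial membrane protein 2, a tetraspan protein of alveolar type 1 cell membranes. Emp2 was at 139 and 152 normalized counts in WT PBS, 199.6 and 183 in WT HDM, 120 and 159 in cKO PBS, and 122 and 131 in cKO HDM. Like Ager and Cav1 it was highest in WT HDM, with a smaller range: both WT HDM libraries were above the rest, which overlapped. The log2 difference between cKO and WT under HDM was -0.59 ± 0.28 SE (interval -1.19 to 0.01, limma adjusted p = 0.524), and that between HDM and PBS in WT was 0.40 ± 0.28 SE (interval -0.20 to 0.99, limma adjusted p = 0.774).

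Cldn18 encodes a claudin of alveolar tight junctions, made by both alveolar cell types, and Aqp5 encodes a water channel of the apical membrane of type 1 cells. Cldn18 was at 96.4 and 126 normalized counts in WT PBS, 121 and 205 in WT HDM, 156 and 165 in cKO PBS, and 128 and 60.6 in cKO HDM. Its 2 libraries disagreed in both HDM groups, and the WT and cKO ranges overlapped there. Under HDM the cKO minus WT difference was -0.83 ± 0.38 SE on the log2 scale (interval -1.63 to -0.03, limma adjusted p = 0.498), and in cKO the HDM minus PBS difference was -0.86 ± 0.38 SE (interval -1.66 to -0.06, limma adjusted p = 0.588). The gene is overlapped by the antisense gene Gm16004.

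Aqp5 was at 78.8 and 81.8 normalized counts in WT PBS, 86.7 and 68.3 in WT HDM, 81.3 and 73.7 in cKO PBS, and 21.8 and 67.3 in cKO HDM. Only cKO HDM replicate 1 was far from the rest. The cKO minus WT difference under HDM was -0.98 ± 0.46 SE on the log2 scale (limma adjusted p = 0.520) and the HDM minus PBS difference in cKO was -0.99 ± 0.46 SE (limma adjusted p = 0.635). In WT, the HDM minus PBS difference of Aqp5 was -0.06 on the log2 scale (interval -1.04 to 0.92, limma adjusted p = 0.985), whose sign turned without WT HDM replicate 2.

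Hopx encodes a homeodomain protein that does not bind DNA and marks type 1 cells and their progenitors. Hopx was at 80.4 and 57.3 normalized counts in WT PBS, 77.0 and 74.8 in WT HDM, 55.3 and 74.9 in cKO PBS, and 99.4 and 88.0 in cKO HDM. It was the tested gene whose cKO HDM libraries were the highest of all 8. Neither comparison passed: the cKO minus WT difference under HDM was 0.30 ± 0.36 SE on the log2 scale (interval -0.47 to 1.07, limma adjusted p = 0.876), and the HDM minus PBS difference in cKO was 0.53 ± 0.36 SE (interval -0.23 to 1.30, limma adjusted p = 0.727). Hopx is overlapped by its antisense gene Hopxos, and the sources used here do not give the strand setting of the counting.

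Igfbp2 encodes a secreted binding protein of insulin-like growth factors that marks mature type 1 cells. Igfbp2 was at 55.1 and 104 normalized counts in WT PBS, 24.1 and 56.7 in WT HDM, 39.0 and 50.8 in cKO PBS, and 56.6 and 52.3 in cKO HDM. WT PBS held the highest library and WT HDM the lowest, the opposite of the order of Ager. The HDM minus PBS difference in WT was -1.01 ± 0.48 SE on the log2 scale (interval -2.04 to 0.02, limma adjusted p = 0.564), with overlapping libraries. Under HDM the cKO minus WT difference was 0.54 ± 0.48 SE (limma adjusted p = 0.790), and it turned sign without WT HDM replicate 1.

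Pdpn, Akap5 and Rtkn2 were too low to test, with means under 10 normalized counts. Pdpn encodes podoplanin, a mucin-type glycoprotein of type 1 cells that lymphatic endothelium also makes. It gave 46 reads in all, with 5.36 and 2.73 normalized counts in WT PBS, 5.87 and 10.3 in WT HDM, 0 and 5.08 in cKO PBS, and 2.18 and 9.97 in cKO HDM. Akap5, an anchoring protein of protein kinase A, gave 41 reads and was at 0 in 3 libraries. Rtkn2 gave 3 reads in all and was at 0 in 6 libraries. A count of 0 allows up to the level of 3 reads, 1.96 to 4.88 normalized counts depending on the library and for counting error only, so differences in Rtkn2 were not detectable at this depth. With no filter on low values, none of the 3 passed in any of the 5 comparisons.

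**Figure D2:**
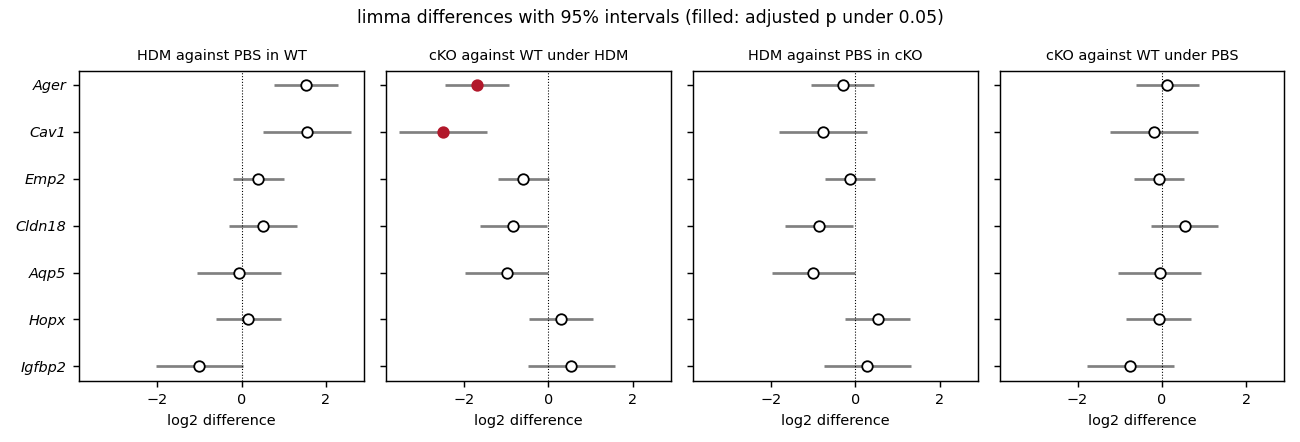
Log2 differences (horizontal axes, log2 of normalized count + 1) of the 7 tested genes in 4 comparisons, with 95% intervals from limma as bars and filled points for an adjusted p under 0.05. Ager at -1.69 and Cav1 at -2.50 in cKO against WT under HDM are the filled points.

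Counted over the 7 tested genes, 2 passed lower and 0 higher in cKO against WT under HDM, where 0.519% of all tested genes passed lower. Of the 7, 4 (Ager, Cav1, Emp2 and Aqp5) had both cKO libraries below both WT libraries, as 21.9% of all tested genes did. Hopx had both above. The median log2 difference of the 7 was -0.83, against 0.02 over all tested genes. The members were chosen with earlier results of these data known, so their shares are descriptive. For HDM against PBS in WT, 0 of the 7 passed by limma, where 0.506% of all tested genes passed higher. By edgeR 0 passed and by DESeq2 1, and 2 had an unadjusted limma p under 0.05, as 8.93% of all tested genes did. Ager, Cav1 and Emp2 had both HDM libraries above both PBS libraries, as 21.2% of all tested genes did, and the median of the 7 was 0.40 against -0.03.

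For HDM against PBS in cKO, 0 of the 7 passed by limma, edgeR or DESeq2, where limma called 0.0532% of all tested genes in either direction, and 2 had an unadjusted limma p under 0.05, as 7.77% of all tested genes did. Of the 7, 6 had groups that did not overlap, 2 higher (Hopx and Igfbp2) and 4 lower (Ager, Cav1, Aqp5 and Cldn18), where 35.6% of all tested genes did not overlap in either direction. The median of the 7 was -0.30 against 0.10. For cKO against WT under PBS, limma, edgeR and DESeq2 called 0 of the 7, and an unadjusted p under 0.05 was reached by 0, where 0% of all tested genes passed by any of these tools and limma gave 523 an unadjusted p under 0.05. Cldn18 had both cKO libraries above both WT libraries and Igfbp2 both below, where 34.7% of all tested genes did not overlap in either direction. The median of the 7 was -0.07 against -0.09. For the dependence of the HDM difference on genotype, limma, edgeR and DESeq2 called 0 of the 7, where limma called 0.0266% of all tested genes. The 2 genes that limma called were Hc and Scd1, both from the type 2 list below. Their differences were -2.77 and -2.71 (limma adjusted p = 0.0386 and 0.00828). An unadjusted limma p under 0.05 was reached by 3 of the 7 and by 7.77% of all tested genes, and the median was -0.93 against 0.16. These comparisons share libraries, so their values are set side by side and are not independent of each other.

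A further list of 30 alveolar type 1 genes, such as those of caveolae and basement membrane, was examined in the same way. Its summed level lay between 1956 and 2390 normalized counts in the 8 libraries, with overlapping groups, whereas the 10 genes above summed to 799 and 936 in WT HDM and 486 to 667 elsewhere. Which cells made the RNA in either sum was not tested. Of its 22 tested genes, 0 passed by limma, edgeR or DESeq2 in any of the 5 comparisons. Under HDM, 5 had an unadjusted limma p under 0.05, as 9.60% of all tested genes did, and the median cKO minus WT log2 difference was -0.04. For HDM against PBS in WT, 0 had an unadjusted p under 0.05 by limma, 2 by edgeR and 2 by DESeq2, and the median was 0.11. By limma, 8.93% of all tested genes had such a p. The Wnt ligand gene Wnt7a was at 0 in all libraries.

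Caveola genes were set beside Cav1 because their proteins sit in the same membrane pits. Cavin1, which encodes a coat protein of caveolae, was at 100.3 and 118 normalized counts in WT PBS, 158 and 133 in WT HDM, 106 and 100.3 in cKO PBS, and 84.2 and 76.4 in cKO HDM. Its cKO minus WT difference under HDM was -0.84 ± 0.31 SE on the log2 scale (limma adjusted p = 0.352), and its libraries too were highest in WT HDM and lowest in cKO HDM. Cavin2 and Cav2, another coat protein and a partner of caveolin-1, were named after their values were seen. Their cKO minus WT log2 differences under HDM were -0.78 ± 0.35 SE (limma adjusted p = 0.490) and -0.68 ± 0.39 SE (limma adjusted p = 0.627). In WT, the HDM minus PBS difference was 0.41 for Cavin1, 0.08 for Cavin2 and 0.71 for Cav2 (limma adjusted p = 0.786, 0.980 and 0.654). Cavin2's libraries overlapped there. None of these 3 passed in either comparison. In the rest of the list the smallest p-values under HDM belonged to Cyp2b10, a cytochrome P450, with 0.96 ± 0.30 SE (limma adjusted p = 0.246), and to Agrn, the basement membrane proteoglycan agrin, with -1.98 ± 0.83 SE (limma adjusted p = 0.458). For HDM against PBS in WT they belonged to Mab21l4 at -1.01, the phospholipid-binding gene Anxa1 at -0.57 and the endothelial growth factor gene Vegfa at 1.01 (limma adjusted p = 0.605, 0.624 and 0.624).

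Type 1 cell identity is known to depend on the transcription factor NKX2-1 and on YAP and TAZ, coactivators restrained by the Hippo kinases. Of 18 tested genes of this pathway and of type 1 regulators, 0 passed by limma, edgeR or DESeq2 in any of the 5 comparisons. Under HDM the median cKO minus WT difference was -0.28 and 0 had an unadjusted limma p under 0.05, and in WT the median HDM minus PBS difference was -0.01 and 1 did. Of all tested genes, 9.60% and 8.93% had such a p in these comparisons. Ccn1, a target of YAP, was at 9.95 and 17.3 normalized counts in WT PBS, 35.2 and 30.9 in WT HDM, 0 in both cKO PBS libraries, and 5.08 and 3.32 in cKO HDM. Its cKO minus WT difference under HDM was -2.73 on the log2 scale (limma adjusted p = 0.535). Nf2 and Amotl1 differed by 0.78 and -1.10 in that comparison (limma adjusted p = 0.605 and 0.650). Lats1, a Hippo kinase gene, differed by 1.28 between HDM and PBS in WT without passing, Amotl1 by 0.91 and Sav1 by -0.74 (limma adjusted p = 0.786 for both). Nkx2-1 itself, named after its values were seen, lay between 73.3 and 143 normalized counts, with a cKO minus WT difference under HDM of -0.22 (interval -0.90 to 0.45, limma adjusted p = 0.902), whose sign turned without cKO HDM replicate 1.

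Genes of the transitional state between type 2 and type 1 cells gave 0 calls by limma, edgeR or DESeq2 among 11 tested in each comparison. By limma, 2 had an unadjusted p under 0.05 in cKO against WT under HDM and 4 in HDM against PBS in WT. Of all tested genes, 9.60% and 8.93% did. The median cKO minus WT difference under HDM was 0.23 and the median HDM minus PBS difference in WT was -0.17. Krt8, a keratin of that state and of airway epithelium, was at 225 and 215 normalized counts in WT PBS, 139 and 135 in WT HDM, 197 and 156 in cKO PBS, and 247 and 203 in cKO HDM. WT HDM was thus the lowest group for Krt8, the opposite of Ager. The differences were 0.71 for cKO minus WT under HDM (limma adjusted p = 0.382) and -0.68 for HDM minus PBS in WT (limma adjusted p = 0.443). Under HDM, 8 of the 11 differences were positive and 3 negative. Tm4sf1 was at 0.69 (limma adjusted p = 0.536), whereas Cdkn1a was at -0.90 (limma adjusted p = 0.418). For HDM against PBS in WT, 4 were positive and 7 negative. Cldn4, at 5.22 and 0 normalized counts in WT HDM, differed by -3.33 and F3 by -1.11 (limma adjusted p = 0.415 and 0.503).

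Markers of several other cell types moved with Ager and Cav1, whereas ciliated markers went the other way. All 15 alveolar type 2 markers were tested, and in cKO against WT under HDM 11 of them fell (limma, adjusted p under 0.05), with a median of -1.78. They were Sftpc, Sftpb, Lamp3, Lpcat1, Slc34a2, Etv5, Cxcl15, Hc, Chil1, Fasn and Scd1. In WT, 8 rose with HDM, with a median of 1.54: Sftpa1, Sftpd, Slc34a2, Cxcl15, Hc, Chil1, Fasn and Scd1. This list was chosen with earlier results of these data known, so its share of calls is descriptive and no independent support. Of all tested genes, 0.519% passed lower in the first comparison and 0.506% higher in the second. Without WT HDM replicate 2, 3 of the 11 and 2 of the 8 kept their calls. Without WT PBS replicate 1, 1 of the 8 did, and without either cKO HDM library, 6 of the 11 did. Sftpc was at 765 and 1289 in WT PBS, 1519 and 2878 in WT HDM, 981 and 1209 in cKO PBS, and 856 and 801 in cKO HDM. Set against Sftpc within each library, Ager was at 7.31 and 6.77 per 100 Sftpc in WT PBS, 11.2 and 8.33 in WT HDM, 6.80 and 7.25 in cKO PBS, and 7.37 and 7.57 in cKO HDM. That ratio varied 1.66-fold over the 8 libraries, against 4.29-fold for Ager and 3.76-fold for Sftpc alone, and it was higher in both WT HDM libraries than in the 6 others. In these bulk samples, fewer cells of a type and less RNA per cell cannot be told apart.

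The 18 endothelial markers bear on Cav1, which endothelial cells also make. Of the 14 tested, 3 fell in cKO against WT under HDM (Cdh5, Calcrl and Acvrl1) and all 14 differences were negative, with a median of -2.32. In WT, 2 rose with HDM (Calcrl and Vwf), with a median of 2.34. The endothelial list too was chosen with earlier results of these data known, so its share of calls is descriptive. Of all tested genes, 0.519% passed lower in the first comparison and 0.506% higher in the second. Without WT HDM replicate 2 or cKO HDM replicate 1, 0 of the 3 kept their calls, and without WT HDM replicate 1 or cKO HDM replicate 2, 1 did. Without any 1 of the WT HDM, WT PBS or cKO HDM libraries, 0 of the 2 that rose did. Pecam1, an endothelial adhesion gene, was at 22.2 and 9.09 in WT PBS, 110 and 91.5 in WT HDM, 27.7 and 0 in cKO PBS, and 16.7 and 19.9 in cKO HDM. Cav1 divided by Ager was 0.452 and 0.531 in WT PBS, 0.628 and 0.409 in WT HDM, 0.390 and 0.391 in cKO PBS, and 0.299 and 0.260 in cKO HDM. That ratio was lowest in the cKO HDM libraries and overlapped between WT HDM and WT PBS.

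**Figure D3:**
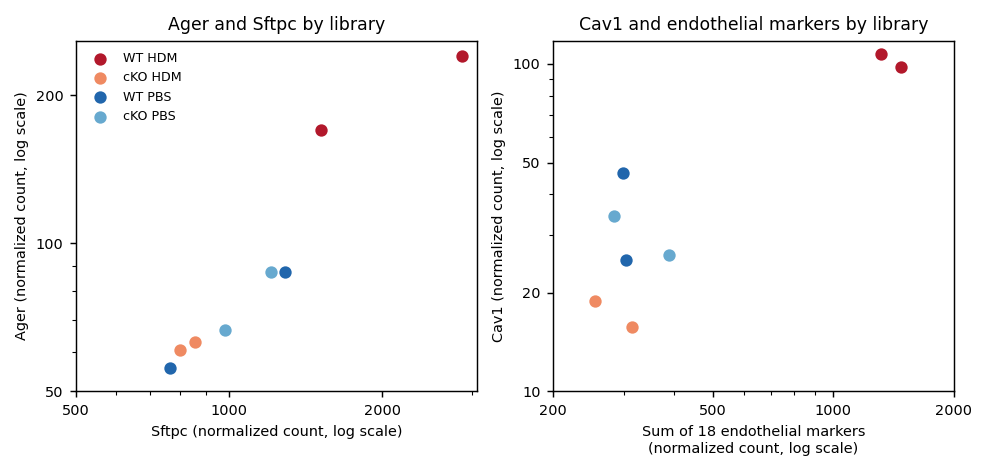
Left, Ager against the alveolar type 2 gene Sftpc, and right, Cav1 against the sum of 18 endothelial markers, with a point for each of the 8 libraries and log axes in normalized counts. The WT HDM libraries are at the top right of both panels, with Ager at 170 and 240 and Sftpc at 1519 and 2878 on the left, and Cav1 at 107 and 98.0 and endothelial sums of 1314 and 1472 on the right.

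Leukocyte markers summed to 58.0 and 258 normalized counts in WT HDM and 0.7 to 10.9 elsewhere. Red cell markers summed to 229 and 424 in WT HDM and 3.3 to 36.4 elsewhere. Lymphatic endothelial markers, which bear on Pdpn, summed to 86.7 and 102 in WT HDM and 2.7 to 23.9 elsewhere. Lyve1, the only 1 of the 6 that could be tested, averaged 50.6 in WT HDM, whereas Prox1, the defining lymphatic gene, was at 5.87 and 0 there and at 9.19 and 0 in WT PBS. Ciliated markers went the other way, with 1580 and 1992 in WT HDM and 2435 to 3083 elsewhere. Pan-epithelial markers were also lowest in WT HDM, with sums of 1280 and 1432 against 1520 to 1810 elsewhere. In WT, all 6 had negative HDM minus PBS differences, with a median of -0.32, and 0 passed by limma. Of 9 club and secretory markers, 8 had negative differences in that comparison. All 9 were positive for cKO against WT under PBS, and 0 passed by limma in either. The part of these cells in the levels of Emp2 and Pdpn was not tested.

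**Figure D4:**
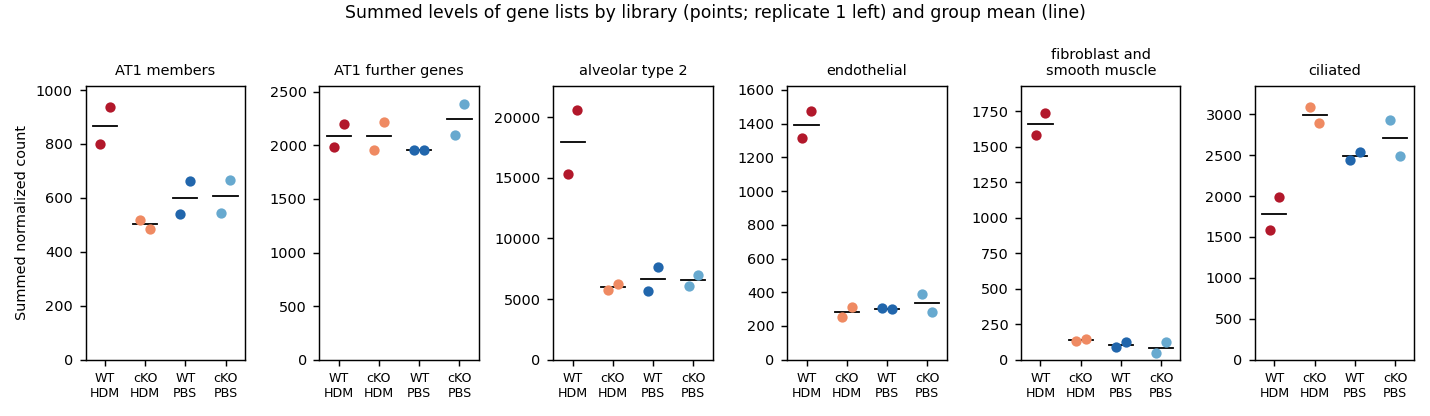
Summed normalized counts (vertical axes, each from 0 and on its own scale) of the 10 alveolar type 1 genes, the further type 1 list and 4 lists of other cell types, with a point for each library and a line at the group mean. The WT HDM libraries are highest for the type 2, endothelial and fibroblast lists and lowest for the ciliated list, while the further type 1 genes lie between 1956 and 2390 in every library.

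The genes whose levels were most like those of Ager over the 8 libraries were sought among 7341 genes by Pearson's r of log2 values, as a description with no test. Cxcl15, a lung chemokine gene from the type 2 list, came first (r = 0.995). It was at 347 and 527 normalized counts in WT PBS, 1131 and 1503 in WT HDM, 434 and 494 in cKO PBS, and 370.1 and 385 in cKO HDM. Next were Acly (0.985), an enzyme of fatty acid synthesis, Lyz2 (0.982), a lysozyme gene, Ppic (0.980) and Map3k9 (0.973). The libraries fall into the WT HDM pair and the rest for Ager, and over the 6 libraries outside WT HDM these r were 0.965, 0.820, 0.958, 0.859 and 0.875. The genes were picked by r over all 8 libraries, which include these 6, so high values there follow in part from the choice. Most like the mean of the 7 tested genes were Cyren (0.970), Tmem140 (0.970), Ctsl (0.964), Lyz2 (0.959) and Ddx5 (0.958). The points of each r share the same libraries, size factors and depth.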

How the data were processed

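RNA from airway epithelial cells, sorted by flow cytometry, was made into directional libraries from 1 ng, per the labels' protocols. The authors deposited 1 table of signal values, read counts per gene normalized by library; HOMER, DESeq2 and mm10 are named in the submitters' processing notes, with no versions. Whole reads were recovered from the value steps (100% whole within 0.01 of a read). The sources used here do not give the aligner or the counting settings. Genes averaging 10 or more normalized counts over the libraries (7512 of 25124) were tested with limma 3.58.1 in R 4.3.3, with trend, on log2(value + 1), with 1 mean for each group over all 8 libraries, two-sided, and Benjamini-Hochberg adjusted p under 0.05. edgeR 4.0.16 and DESeq2 1.42.0 ran on the recovered reads as alternatives. Other alternatives were pseudocounts of 0.2 and 5, no filter, a minimum mean of 50, TMM, quantile normalization, a replicate block, a fit of only the groups compared, and leaving out each library. The limma procedure was run on simulated reads for HDM against PBS in WT only, and that run set no limit on false calls. Named genes are all members, the 3 smallest p in each further type 1, regulator and transitional list, type 2 and endothelial genes that passed, and the 5 genes most like Ager and most like the members' mean; genes named outside this rule are Cav2, Cavin2 and Nkx2-1, the checks Stat3, Sftpc, Pecam1, Epcam, Scgb1a1, Foxj1, Lyve1 and Prox1, and Wnt7a. Members and lists were chosen with earlier results of these data known. Loci and exon lengths are from GENCODE M21 (GRCm38), and promoters from RefSeq (GRCm38.p6).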

Additional observations from a re-analysis of the deposited data

How the results depend on the processing

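The 35 member differences kept their direction under every changed processing choice in which they were fitted. That gave 373 values, from a few refits of the same libraries, of which 363 stayed on the same side of the threshold. Only Ager and Cav1 in cKO against WT under HDM had passed, and most other differences were far from the threshold. The 363 are therefore little evidence of stable calls. The counts of all genes called depended more on the choices. For HDM against PBS in WT, 39 genes passed, against 16 with a pseudocount of 0.2, 108 with 5, 14 without a filter, 77 with a minimum mean of 50, 101 with quantile normalization, 190 with only the groups compared, 59 by edgeR, 134 by DESeq2, and 3 to 110 leaving out 1 library. For HDM against PBS in cKO, 4 passed, against 0, 14, 0, 16, 12, 0 and 28 with a pseudocount of 0.2, a pseudocount of 5, no filter, a minimum mean of 50, quantile normalization, only the groups compared and DESeq2, and 0 to 320 leaving out 1 library. For cKO against WT under HDM, 43 passed, against 29 with a pseudocount of 0.2, 99 with 5, 9 without a filter, 85 with a minimum mean of 50, 96 with quantile normalization, 142 with only the groups compared, 126 by DESeq2, and 3 to 117 leaving out 1 library. For cKO against WT under PBS, 0 passed, and 0 to 315 leaving out 1 library. For the dependence of the HDM difference on genotype, 2 passed, against 0 with a pseudocount of 0.2, 12 with 5, 0 without a filter, 9 with a minimum mean of 50, 1 with TMM, 9 with quantile normalization, 7 by edgeR, 27 by DESeq2, and 0 to 115 leaving out 1 library. The cause was not tested. Quantile normalization moved the higher and lower calls from 38 and 1 to 73 and 28 for HDM in WT, and from 4 and 39 to 25 and 71 for cKO against WT under HDM. Ager's call in cKO against WT under HDM was lost with a pseudocount of 0.2 (adjusted p = 0.0764), no filter (0.165) and TMM (0.0540), and Cav1's with no filter (0.105). Ager gained a call in HDM against PBS in WT with a pseudocount of 5 (0.0337), a minimum mean of 50 (0.0146), quantile normalization (0.0414), only the groups compared (0.00499) and DESeq2 (0.0115), and without cKO PBS replicate 1 or 2 (0.0317 and 0.0338), and Cav1 with only the groups compared (0.0287); a minimum mean of 50 leaves Cav1 untested. Leaving out 1 library turned the sign of some small differences: for HDM against PBS in WT, Hopx from -0.082 to 0.40, Aqp5 from -0.23 to 0.11, Cavin2 from -0.17 to 0.33 and Nkx2-1 from -0.023 to 0.0835 (also -0.026 with TMM and -0.015 with quantile normalization); in cKO, Emp2 from -0.33 to 0.071; for cKO against WT under HDM, Igfbp2 from -0.059 to 1.14 and Nkx2-1 from -0.51 to 0.066; and under PBS, Ager from -0.19 to 0.45, Cav1 from -0.62 to 0.23, Hopx from -0.32 to 0.17, Aqp5 from -0.12 to 0.018 and Emp2 from -0.27 to 0.13. TMM moved the median of all genes from 0.10 to 0.21 for HDM in cKO, from -0.09 to -0.19 for cKO against WT under PBS and from 0.16 to 0.32 for the dependence on genotype.

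With the replicate number as a block, 43, 5, 48, 0 and 3 genes passed in the 5 comparisons, and Ager and Cav1 kept their calls in cKO against WT under HDM (limma adjusted p = 0.0370 and 0.0328). Leaving out 1 library leaves 1 in its group, which is assumed to vary like the other groups. Same-numbered libraries did not deviate together over all tested genes (correlations of -0.02 to 0.02). That check cannot exclude a shared factor that acts on some genes only, and the labels give just a replicate number. Depths of 232556 to 593200 reads limit Pdpn, Akap5 and Rtkn2 most.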
